A study of Mus musculus with 8 samples.

Results

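The 8 genes described here are the NR4A receptors Nr4a1, Nr4a2 and Nr4a3 and the Krüppel-like factors Klf2, Klf4, Klf6, Klf10 and Klf13. They were taken by symbol from the 56748 gene IDs of each count table as activity-induced members of 2 transcription factor families. NR4A proteins are nuclear receptors without a known classical ligand, so their activity depends largely on how much protein the cell makes. KLF proteins bind GC-rich DNA through zinc fingers. Many genes of both families are immediate early genes, transcribed within minutes of a signal without new protein synthesis, and their mRNAs are often short-lived. Nr4a genes are among those induced when mast cells are stimulated through the IgE receptor.

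RNA-seq was performed on bone marrow derived mast cells (BMMCs), mast cells grown with the cytokine IL-3 from the bone marrow of C57BL/6 mice. All cultures were electroporated and then left resting. In the Mettl3-RNP group (genotype label Mettl3 KO, 4 libraries) they received Cas9 ribonucleoproteins with guide RNAs against Mettl3, the catalytic subunit of the complex that writes N6-methyladenosine (m6A) on mRNA. In the Pulsed group (4 libraries) they were mock transfected, so the control carried no Cas9 complex. Neither group is a clone, and a culture given the complexes can hold cells that were not edited. Both groups carry the replicate numbers 1 to 4 and the series text names 4 mice, so libraries of 1 number were treated as a pair. The match of numbers to mice is inferred, and p-values measure the spread between these libraries.

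Libraries held 32643260 to 45324826 counts. Mettl3 itself was at 12.3, 9.18, 4.88 and 9.21 CPM in Mettl3-RNP 1 to 4 and at 25.9, 24.5, 11.2 and 26.5 CPM in Pulsed 1 to 4, where CPM is the count relative to the library total after TMM scaling (counts per 1000000). It fell in 4 of 4 pairs (log2 fold change -1.30, SE 0.11, edgeR adjusted p = 0.00543), although its exons overlap those of Tox4 on the opposite strand. Pulsed 3 was below the highest Mettl3-RNP library for this transcript. Sums of marker genes are given relative to the library total without TMM scaling. The 12 mast cell markers summed to 40935 to 56956 CPM in Mettl3-RNP and 45991 to 63127 CPM in Pulsed libraries, with 1 of them, Tpsab1, under 1 CPM. Among 11 tested, Cpa3, a granule carboxypeptidase and the largest part of that sum, passed the threshold and fell from 30425 ± 7703 CPM (SD, n = 4) in Pulsed to 23272 ± 4921 CPM in Mettl3-RNP libraries (log2 fold change -0.37, SE 0.070, edgeR adjusted p = 0.0328, lower in 4 of 4 pairs). Neutrophil markers summed to at most 0.353 CPM, with 5 of 10 at 0. The 11 monocyte and macrophage markers summed to 2.70 to 5.54 CPM against 4.35 to 6.42 CPM, with Adgre1 called lower (log2 fold change -1.13, SE 0.24, edgeR adjusted p = 0.0435, lower in 4 of 4 pairs), the 6 erythroid markers to 1.19 to 2.78 against 2.83 to 4.41, and the 5 lymphocyte markers to at most 1.21. Of 3 genes listed as basophil markers, Cd200r3 made up most of a sum of 537 to 852 CPM against 524 to 619 CPM and was higher in 4 of 4 pairs. Mcpt8 and Prss34 were lower in 4 of 4 pairs. They were at 2.56 ± 1.42 and 1.13 ± 0.688 CPM (SD, n = 4) in Pulsed libraries. In Mettl3-RNP libraries they were at 1.88 ± 0.920 and 0.702 ± 0.461 CPM. The sum is thus mainly the level of 1 gene and is not read as a share of basophils. None of these 3 passed the threshold.

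The promoters of the NR4A genes are shown first because they share a repeated short sequence. TGACG, the short form of the site bound by CREB and related ATF proteins, which carry cAMP and calcium signals, occurred 4 times in each of the 3 NR4A promoters. Each line runs 5′ to 3′ on the strand of the gene, from 250 bases before to 50 bases after the RefSeq start site (GRCm38.p6), with the letters TGACG in capitals where they lie on this strand and CGTCA in capitals where they lie on the other. Nr4a1 is at chr15:101266596-101266895 on the plus strand, Nr4a2 at chr2:57123954-57124253 on the minus strand and Nr4a3 at chr4:48045055-48045354 on the plus strand. Klf6, at chr13:5861239-5861538 on the plus strand, is added as the 1 promoter with no match.
Nr4a1: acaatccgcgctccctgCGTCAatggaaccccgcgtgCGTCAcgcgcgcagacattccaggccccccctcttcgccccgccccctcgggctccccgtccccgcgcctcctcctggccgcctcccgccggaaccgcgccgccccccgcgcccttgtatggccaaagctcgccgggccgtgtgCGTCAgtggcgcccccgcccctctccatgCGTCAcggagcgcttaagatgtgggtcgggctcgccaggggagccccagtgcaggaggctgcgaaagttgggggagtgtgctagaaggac
Nr4a2: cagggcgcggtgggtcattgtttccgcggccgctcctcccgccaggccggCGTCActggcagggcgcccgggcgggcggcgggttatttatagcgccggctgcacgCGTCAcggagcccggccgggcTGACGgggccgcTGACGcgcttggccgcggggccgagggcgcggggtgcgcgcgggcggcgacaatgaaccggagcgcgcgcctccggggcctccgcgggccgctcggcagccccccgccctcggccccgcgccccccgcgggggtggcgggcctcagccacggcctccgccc
Nr4a3: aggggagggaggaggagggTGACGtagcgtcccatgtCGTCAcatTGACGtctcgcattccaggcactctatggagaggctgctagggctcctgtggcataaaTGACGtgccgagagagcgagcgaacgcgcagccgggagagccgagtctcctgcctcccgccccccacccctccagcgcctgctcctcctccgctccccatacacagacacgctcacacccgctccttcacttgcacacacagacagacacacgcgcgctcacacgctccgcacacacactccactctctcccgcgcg
Klf6: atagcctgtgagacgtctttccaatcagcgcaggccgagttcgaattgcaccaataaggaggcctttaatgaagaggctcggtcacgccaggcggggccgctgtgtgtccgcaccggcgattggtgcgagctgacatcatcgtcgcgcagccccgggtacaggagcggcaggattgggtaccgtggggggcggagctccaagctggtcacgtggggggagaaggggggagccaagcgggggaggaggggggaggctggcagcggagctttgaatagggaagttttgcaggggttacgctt

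RefSeq promoters were found for 7 of the 8 genes, all but Klf10. TGACG on either strand was in 6 of these 7, with 1 match each in Klf2, Klf4 and Klf13, and in 20.8% of all 32851 promoters of the same length. At least 4 matches were found in 0.231% of all promoters. That limit equals the count in the 3 NR4A promoters, and the members were taken as activity-induced, so this share is a description and not a test. The full palindrome TGACGTCA, which holds TGACG on both strands, was in 0 of 7 and in 1.79% of all. GGGCGG, the GC box bound by SP and KLF proteins, was in 7 of 7 and in 35.7% of all, with 5 matches in Nr4a2 and 4 in Klf4. A MEF2 site was found in Nr4a2 and Klf2 and in 3.19% of all promoters. The NR4A site AAAGGTCA (1.51% of all), the AP-1 site TGANTCA (7.81%) and the CArG box of serum response factor (1.63%) had 0 matches in the 7 windows. All motifs were searched on both strands, a match is a description of letters, and these windows are GC-rich, from 63% in Klf6 to 81.7% in Nr4a2.

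In GRCm39 the NR4A genes lie apart from each other, Nr4a1 at chr15:101151980-101172681 (plus strand), Nr4a2 at chr2:56996842-57014331 (minus strand) and Nr4a3 at chr4:48045153-48086447 (plus strand). The KLF genes are Klf2 at chr8:73072726-73075502 (plus strand), Klf4 at chr4:55527139-55532528 (minus strand), Klf6 at chr13:5911481-5920393 (plus strand), Klf10 at chr15:38291703-38300959 (minus strand) and Klf13 at chr7:63536099-63588663 (minus strand).

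Except for Klf10, at least 80.7% of the spread of each member over the 8 libraries lay between replicate numbers, where the median over all genes tested was 78.3%, so Klf4 and Klf13 were near that median. All 8 differed between replicate numbers at an edgeR adjusted p of 0.05 or less, against 53.9% of the 14942 genes tested. Between Mettl3-RNP and Pulsed, 0 of 8 passed the same threshold, against 3.74% of all genes tested, and 3 of 8 had an unadjusted p under 0.05, as did 22.5% of all genes tested. For 6 of the 8, the library with the highest level was replicate 3 in both groups, which was so for 26.9% of all genes tested, and Klf2 and Klf10 were the exceptions. For 5 of the 8, the lowest was replicate 4 in both groups (12.5% of all genes tested). In bulk RNA, a change in the share of cells that express a gene and a change in the RNA per cell cannot be told apart.

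Nr4a1 (Nur77), the receptor most widely used as a reporter of antigen receptor signalling, had the widest range of the 8 genes. It was at 6.75, 142, 1105 and 2.55 CPM in Pulsed 1 to 4 and at 5.68, 219, 1653 and 3.16 CPM in Mettl3-RNP 1 to 4. Replicate 3 stood highest and replicate 2 next in both groups, whereas replicates 1 and 4 were low in both. The highest Pulsed library exceeded the lowest 434-fold, and the highest Mettl3-RNP library the lowest 523-fold. Of the 8504 genes that averaged 10 CPM or more, whose median high-to-low ratio over Pulsed libraries was 1.61-fold, 5 were at least as spread as Nr4a1, itself included. The difference between replicate numbers had an edgeR adjusted p of 3.59e-06, and 0.000107 with replicate 3 left out.

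Within pairs, Nr4a1 moved little beside that range. Its log2 CPM differences, Mettl3-RNP minus Pulsed, were -0.25, 0.62, 0.58 and 0.31 in pairs 1 to 4, so it was higher in 3 of 4. The fitted log2 fold change was 0.37 (SE 0.14, edgeR adjusted p = 0.173). The 4 Mettl3-RNP values and the 4 Pulsed values overlapped throughout.

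Nr4a2 (Nurr1), known for its part in dopamine neurons and in inflammatory signalling, was at 6.61, 18.2, 75.2 and 5.75 CPM in Pulsed 1 to 4 and at 3.34, 11.2, 312 and 5.44 CPM in Mettl3-RNP 1 to 4. Replicate 3 was again highest in both groups, and the other three Mettl3-RNP libraries were each below their Pulsed partner. Its pair differences on the log2 scale were -0.97, -0.70, 2.05 and -0.08, the largest disagreement among pairs of the 3 NR4A genes. The fitted log2 fold change of 0.18 (SE 0.48, edgeR adjusted p = 0.864) turned to -0.59 (SE 0.18, edgeR adjusted p = 0.126) without replicate 3, and over its 13 alternatives the adjusted p ranged from 0.126 to 1.00. Its difference between replicate numbers had an edgeR adjusted p of 0.000737.

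Nr4a3 (Nor1) was the least abundant NR4A gene. Its counts were 21, 42, 1030 and 9 in Pulsed 1 to 4 and 22, 110, 569 and 4 in Mettl3-RNP 1 to 4, which is 0.591, 1.10, 25.6 and 0.246 CPM against 0.592, 2.57, 19.0 and 0.114 CPM. Both replicate 3 libraries lay above all others and both replicate 4 libraries below. The pair differences were 0.00, 1.19, -0.43 and -0.84 on the log2 scale, with 2 pairs below 0. No direction held for this gene, since the fitted log2 fold change of 0.10 (SE 0.32, edgeR adjusted p = 0.889) was below 0 under 4 of the 12 alternatives that kept it. Between replicate numbers its edgeR adjusted p was 8.51e-05.

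**Figure D1:**
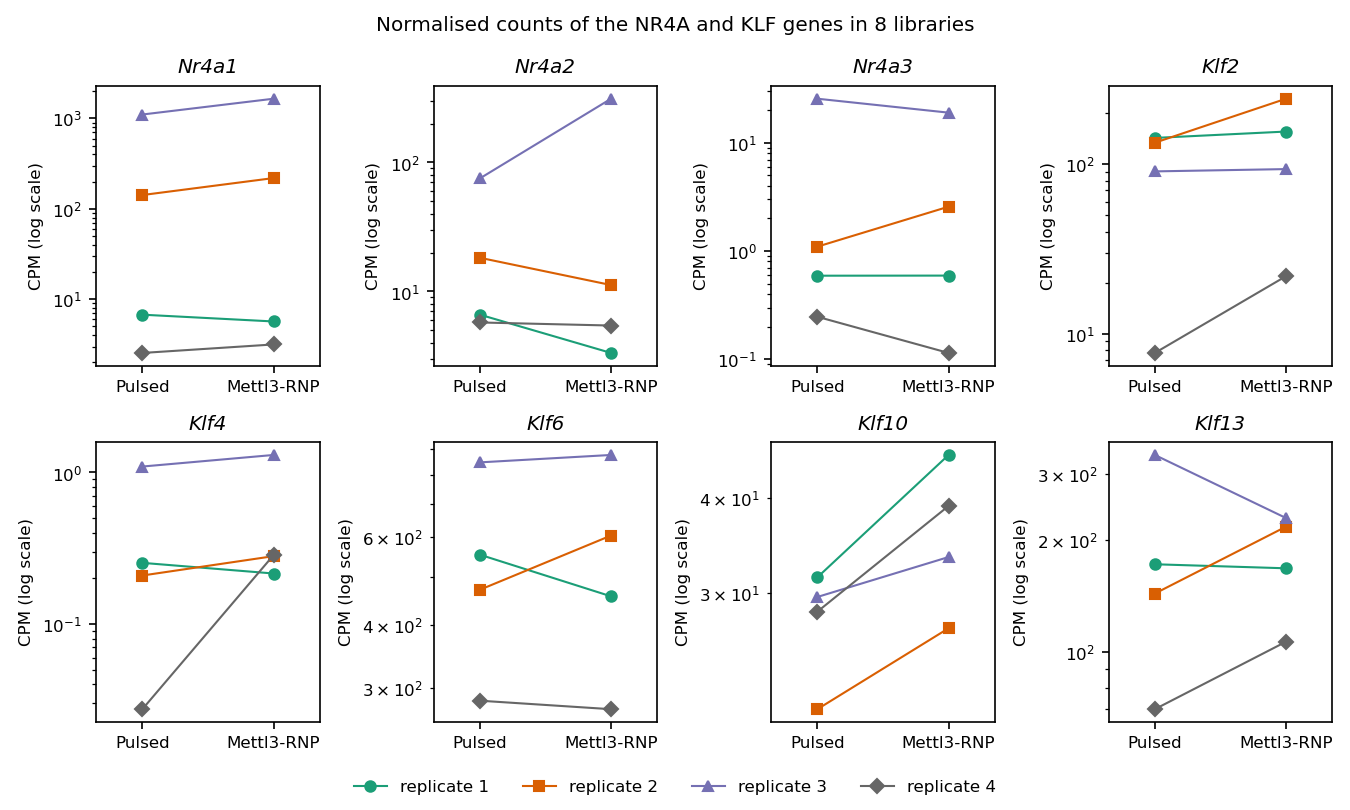
Normalised counts (CPM, log scale) of the 8 genes in each library, with Pulsed on the left and Mettl3-RNP on the right of each panel and a line joining libraries of 1 replicate number. Replicate 3 is the top line in both groups for the NR4A genes, Klf4, Klf6 and Klf13, with Nr4a1 from 2.55 to 1105 CPM among Pulsed libraries, whereas the 4 lines of Klf10 all rise.

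Klf6, a broadly expressed factor that responds to injury and inflammatory signals, was the most abundant KLF member. It was at 553, 471, 846 and 283 CPM in Pulsed 1 to 4 and at 457, 604, 875 and 272 CPM in Mettl3-RNP 1 to 4. Replicate 3 was highest and replicate 4 lowest in both groups, as for Nr4a1 and Nr4a3, over a narrower range of 2.99-fold in Pulsed. Differences within pairs were -0.28, 0.36, 0.05 and -0.06 on the log2 scale. The fitted log2 fold change of 0.02 had an SE of 0.10 (edgeR adjusted p = 0.937), and its direction turned without replicate 2 (-0.10).

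Klf2, which keeps lymphocytes and endothelial cells quiescent, followed another order. Its levels were 143, 134, 90.5 and 7.70 CPM in Pulsed 1 to 4 and 156, 243, 93.4 and 21.8 CPM in Mettl3-RNP 1 to 4. Replicate 4 was lowest in both groups, and replicate 3 had the next lowest level in both, so the libraries highest in NR4A transcripts were not highest in Klf2. The pair differences were 0.12, 0.86, 0.05 and 1.5, above 0 in 4 of 4 pairs, with the largest in the pair of lowest level. The log2 fold change was 0.59 (SE 0.22, edgeR adjusted p = 0.157), and the groups overlapped. Without replicate 4 it was 0.36.

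Klf10, induced early by TGF-beta and by calcium signals, was the steadiest member. It was at 31.4, 21.1, 29.6 and 28.3 CPM in Pulsed 1 to 4 and at 45.6, 27.0, 33.4 and 39.0 CPM in Mettl3-RNP 1 to 4. Each Mettl3-RNP library was above its Pulsed partner, while Mettl3-RNP 2 remained below 3 of the 4 Pulsed libraries. Differences within pairs were 0.53, 0.35, 0.17 and 0.46 on the log2 scale, and the fitted log2 fold change was 0.38 (SE 0.085). The edgeR adjusted p of 0.0522 fell just short of the threshold, and over the 13 alternatives it ranged from 0.00156 to 0.999, with 6 of them below the threshold. An lncRNA on the opposite strand, Gm35248, overlaps exons of Klf10, and the strand setting of the counting is not given in the sources used here.

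Klf10 and Klf2 were the 2 of 8 members higher in 4 of 4 pairs, against 15.7% of all genes tested, and 0 of 8 were lower in 4 of 4 pairs, against 16% of all genes tested. The exact two-sided sign-flip permutation test gave p = 0.125 for each, the smallest that 4 pairs allow. In 0 of 8 members did the groups separate without overlap, against 3.23% of all genes tested. Fitted log2 fold changes were above 0 for 8 of 8 members and for 49.8% of all genes tested, with a median of 0.28 against -0.0013 over all genes tested, and for 8 of 8 also with DESeq2 size factors or library size alone (51% and 55.1% of all genes). The count was 7 of 8 with limma-voom and with removeBatchEffect, 6 of 8 without the replicate block, 5 of 8 without replicate 2 and 6 of 7 without replicate 3.

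Klf13, a GC-box factor that activates the chemokine gene Ccl5 in T cells, was at 172, 143, 338 and 70.0 CPM in Pulsed 1 to 4 and at 168, 217, 229 and 106 CPM in Mettl3-RNP 1 to 4. Its highest and lowest libraries were replicates 3 and 4 in both groups. The pair differences of -0.04, 0.60, -0.56 and 0.60 went both ways. Its fitted log2 fold change was 0.15 (SE 0.19, edgeR adjusted p = 0.696), and it was 0.39 without replicate 3, -0.0095 without replicate 2 and -0.0074 without the replicate block. The gene had an edgeR adjusted p of 0.00593 between replicate numbers.

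Klf4, known from pluripotent stem cells and monocyte differentiation, was near the limit of detection. Its counts were 9, 8, 44 and 1 in Pulsed 1 to 4 and 8, 12, 39 and 10 in Mettl3-RNP 1 to 4, which is at most 1.30 CPM in a library. Both replicate 3 libraries were highest, and the other six held 12 counts or fewer. The pair difference of 2.06 in pair 4 rests on 1 count in Pulsed 4. The log2 fold change of 0.65 had an SE of 0.60 (edgeR adjusted p = 0.586), and it was 0.17 without replicate 4. Between replicate numbers Klf4 had an edgeR adjusted p of 0.0345.

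**Figure D2:**
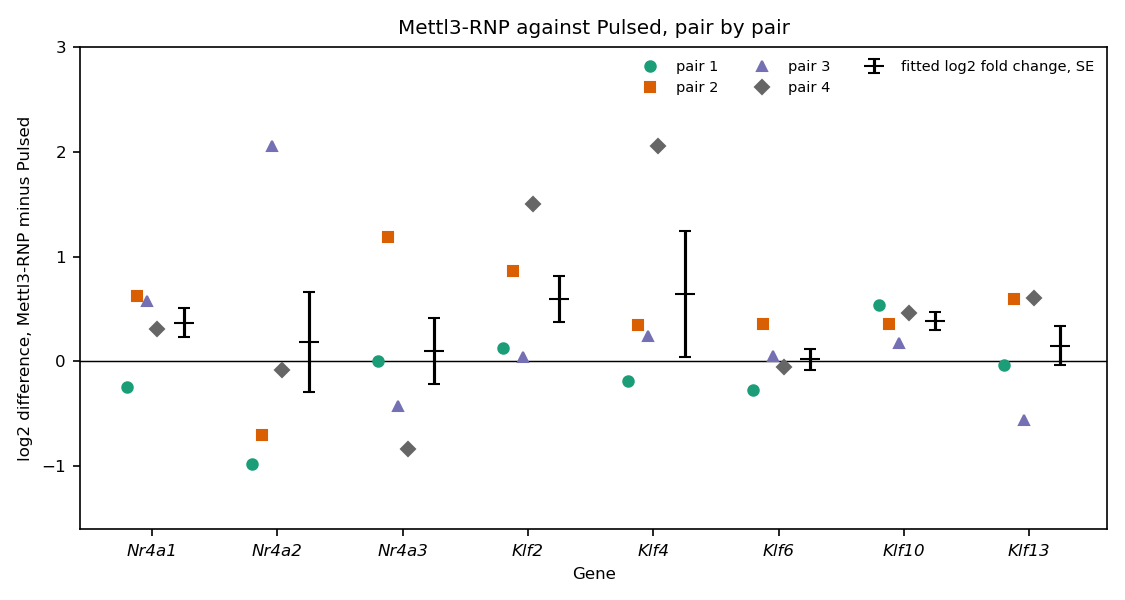
Log2 differences in CPM, Mettl3-RNP minus Pulsed, for each pair of libraries (symbols) and the fitted log2 fold change with its standard error (black bars) for each gene. Pair 3 of Nr4a2 (2.05) and pair 4 of Klf4 (2.06) stand far above the other pairs of their genes, and the 4 pairs of Klf10 lie between 0.17 and 0.53.

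The share of the spread of log2 CPM that lay between replicate numbers was 99.6% for Nr4a1, 97.7% for Nr4a3, 96.2% for Klf6, 92.3% for Klf2, 91.9% for Nr4a2, 84.8% for Klf13, 80.7% for Klf4 and 59.1% for Klf10. The median over all genes tested was 78.3%. The share between Mettl3-RNP and Pulsed was 36.3% for Klf10, at most 6.55% for each of the other seven, and 5.68% at the median of all genes tested. For comparison, 62.6% of the spread of Mettl3 lay between the groups.

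**Figure D3:**
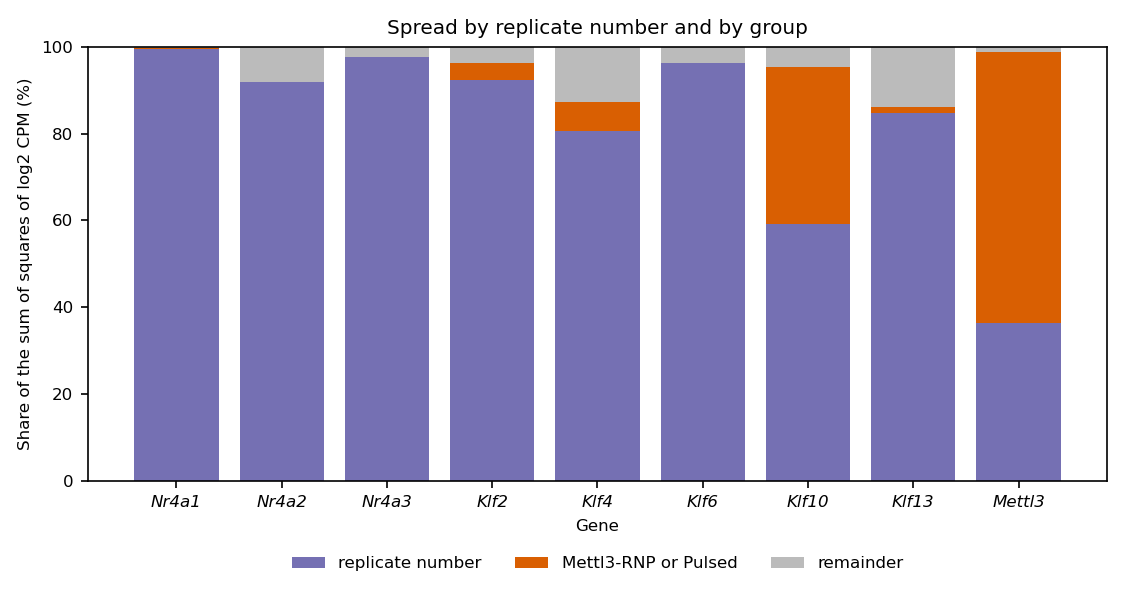
Stacked bars of the share (%) of the sum of squares of log2 CPM over 8 libraries that lies between replicate numbers, between Mettl3-RNP and Pulsed, and in the remainder, for the 8 genes and Mettl3. Replicate number takes 99.6% for Nr4a1 and 59.1% for Klf10, and the group takes 62.6% for Mettl3.

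The 3 NR4A genes had like patterns over the 8 libraries, with Pearson's r of log2 CPM between 0.89 and 0.94. These values describe 8 libraries that form 4 pairs, so they rest on few independent points. Over the 6 libraries left without replicate 3, a check chosen after the data were seen, r was 0.84 for Nr4a1 with Nr4a2, 0.89 for Nr4a1 with Nr4a3 and 0.59 for Nr4a2 with Nr4a3. Klf6 had an r of 0.94 with Nr4a3 and 0.93 with Klf13, and Klf4 had 0.84 with Nr4a3. Klf2 was less like the NR4A genes, from 0.20 with Nr4a2 to 0.50 with Nr4a1. Klf10 had an r between -0.39 and 0.13 with each other member.

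**Figure D4:**
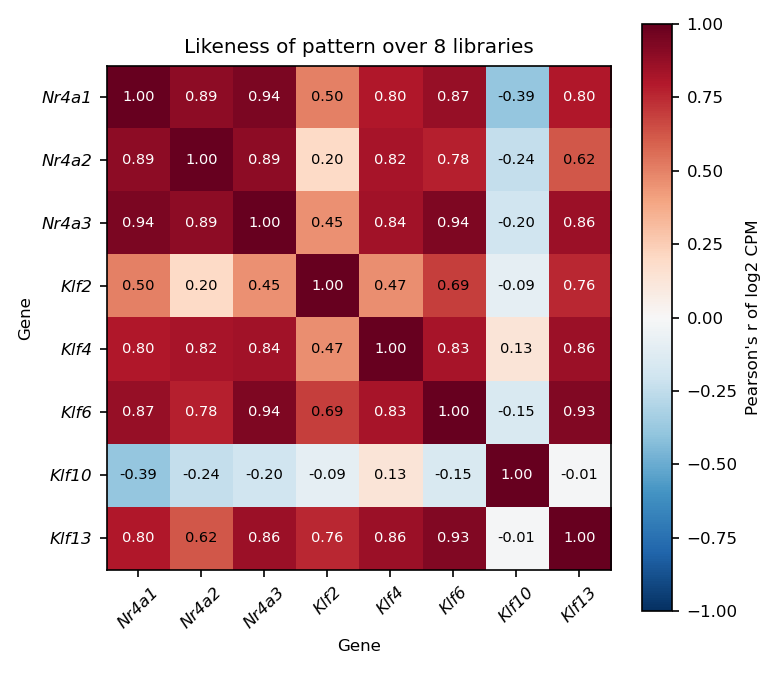
Pearson's r of log2 CPM over the 8 libraries for each pair of genes, from -1 (blue) to 1 (red). Values among the NR4A genes are 0.89 to 0.94, the NR4A genes have r of 0.62 to 0.94 with Klf4, Klf6 and Klf13, Klf2 has 0.20 to 0.76 with the genes other than Klf10, and the row of Klf10 stays between -0.39 and 0.13.

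Among 8498 other genes averaging 10 CPM or more, those most like the 3 NR4A genes by mean r over the 8 libraries were Ifrd1 (0.97), Map2k3 (0.96), Rassf5 (0.96), Msantd7 (0.96) and Nopchap1 (0.96). Ifrd1, a regulator of transcription, was at 29.9, 52.9, 110 and 25.6 CPM in Pulsed 1 to 4 and at 29.6, 50.9, 130 and 23.9 CPM in Mettl3-RNP 1 to 4. Map2k3, a kinase that activates p38, was at 108, 146, 234 and 99.9 CPM in Pulsed 1 to 4. Both kept the order of replicates 3, 2, 1 and 4 that Nr4a1 had in each group. Those most like the 5 KLF genes were Lrp10, B4galt5, Csnk1e, Pcnx1 and Aftph, with a mean r of 0.71 to 0.72, and their lowest r with a single KLF gene was between 0.11 and 0.33. None of these 10 genes passed the threshold between Mettl3-RNP and Pulsed.

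Levels between genes were compared per length, as CPM per kb of the canonical transcript. By the mean of the 4 Pulsed libraries the order was Klf6 (127 ± 55.5 CPM per kb, SD, n = 4), Nr4a1 (123 ± 209), Klf2 (46.9 ± 30.8), Klf13 (28.3 ± 17.7), Klf10 (9.05 ± 1.49), Nr4a2 (5.55 ± 6.92), Nr4a3 (1.20 ± 2.18) and Klf4 (0.131 ± 0.157). The rank of Nr4a1 depends on the length used: per kb of all its annotated exons joined (10903 bases in place of 2548) its Pulsed mean was 28.8, below Klf2 at 43.8. Of the 7 neighbouring pairs in the order by canonical transcript, Klf13 over Klf10 and Nr4a2 over Nr4a3 kept it in 8 of 8 libraries and Nr4a3 over Klf4 in 7 of 8. The other four pairs of neighbours changed order between libraries, so their order is not settled here. With 4 Pulsed libraries the exact two-sided sign-flip permutation test cannot go below p = 0.125. Nr4a1 was above Klf6 in both replicate 3 libraries and below it in the other six, and in 2 of 8 libraries it was above Klf2.

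**Figure D5:**
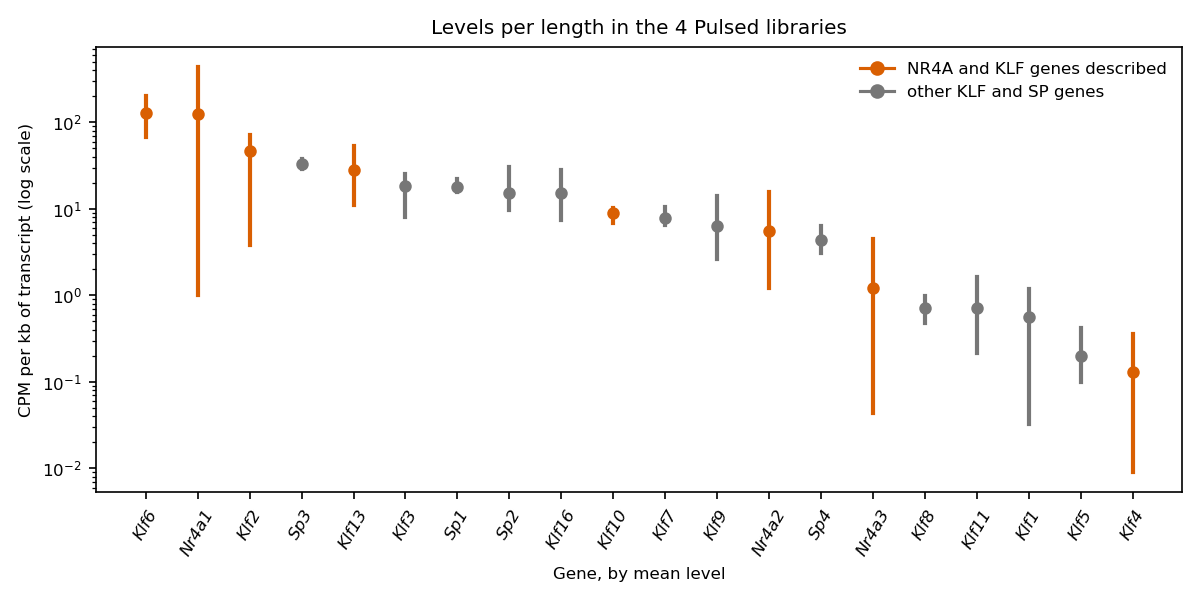
Levels in CPM per kb of transcript (log scale) of the described NR4A and KLF genes and of the other tested KLF and SP genes, with points at the mean of the 4 Pulsed libraries and bars from the lowest to the highest. By canonical transcript length Klf6 and Nr4a1 have the highest means at 127 and 123 CPM per kb, but the bar of Nr4a1 runs down to 1.00 CPM per kb, and per kb of all its exons Nr4a1 is at 28.8.

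Of the 21 other KLF and SP genes, which share the zinc fingers and GC-box sites of the members, 12 had enough counts to be tested and 0 passed the threshold between Mettl3-RNP and Pulsed, while 2 had an unadjusted p under 0.05. DESeq2 called 2 of them and limma-voom 1. DESeq2 called 11.7% of the 12334 genes to which it gave an adjusted p, and limma-voom 4.3% of all genes tested. The counts of these KLF and SP genes were thus near the background. Sp3, the highest per kb, was at 33.2 ± 3.37 CPM per kb (SD, n = 4) in Pulsed and 39.1 ± 3.22 in Mettl3-RNP libraries, with a log2 fold change of 0.24 (SE 0.070, edgeR adjusted p = 0.100). Between replicate numbers, 10 of the 12 passed the threshold, against 53.9% of all genes tested. Sp3 did not (edgeR adjusted p = 0.131). Klf17 and Sp5 had 0 counts in all 8 libraries.

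Of the 25 listed regulators and partners of the 8 genes, 23 were tested, 3 rose and 0 fell, against 2.35% higher and 1.39% lower of all genes tested. Rxra, the retinoid X receptor that pairs with Nr4a1 and Nr4a2, rose from 12.1 ± 3.65 CPM (SD, n = 4) in Pulsed to 22.3 ± 5.10 CPM in Mettl3-RNP libraries (log2 fold change 0.90, SE 0.14, edgeR adjusted p = 0.0216). Nfatc2, a calcineurin-dependent activator, rose from 87.3 ± 30.9 to 119 ± 34.2 CPM (log2 fold change 0.49, SE 0.089, edgeR adjusted p = 0.0319). Mapk7 (ERK5), a kinase upstream of MEF2 and Klf2, rose from 25.2 ± 3.62 to 32.2 ± 5.18 CPM (log2 fold change 0.35, SE 0.073, edgeR adjusted p = 0.0452). Each was higher in 4 of 4 pairs. That none fell did not hold in every fit. DESeq2 called 3 higher and 2 lower (Rxrg and Ppp3r1, named after their values were seen), where it called 11.7% of the genes it gave an adjusted p. Rxrg was also called lower without replicate 4 and with no filter, and Ppp3r1 with at least 10 counts in every sample. With removeBatchEffect and limma-trend, 5 were called higher and 4 lower, where 30.5% of all genes were called. Without the replicate block 0 of the 23 passed, and not all calls held when single pairs were left out. Rxra passed without replicate 1, 3 or 4, 0 of the 23 passed without replicate 2, where 0.174% of all genes passed, and Nfatc2 and Mapk7 passed in none of these fits, with edgeR adjusted p from 0.0504 to 0.136 and from 0.0606 to 0.232.

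Of 18 listed target genes of NR4A and KLF proteins, 13 were tested and 0 passed the threshold, with 3 at an unadjusted p under 0.05 (22.5% of all genes tested) and 2 called by DESeq2 (11.7% of the genes it gave an adjusted p). Their median log2 fold change was 0.01. The 33 immediate early genes that are commonly induced beside NR4A genes were counted in the same way. Of 30 tested, 28 passed between replicate numbers (53.9% of all genes tested), and 0 passed between Mettl3-RNP and Pulsed (3.74% of all). An unadjusted p under 0.05 was found for 5 and a DESeq2 call for 4, against the same 22.5% and 11.7%. With no filter, 7 immediate early genes and 1 member were called, where 2.95% of all genes were. Pulsed 3 was the highest Pulsed library in 28 of the 30, and Mettl3-RNP 3 the highest of its group in 28, both together in 27, which was so for 26.9% of all genes tested. The median ratio of replicate 3 to the mean of the other three was 5.97 in Pulsed and 5.59 in Mettl3-RNP libraries. Over all genes tested the median ratio was 1.04 and 0.977. For the members it was 21.9 and 21.8 for Nr4a1, 7.37 and 46.8 for Nr4a2, 39.7 and 17.4 for Nr4a3, 6.71 and 5.01 for Klf4, 1.94 and 1.97 for Klf6, and 2.63 and 1.40 for Klf13. Klf2, at 0.957 and 0.667, and Klf10, at 1.10 and 0.899, had ratios near or below 1. The summed mast cell markers of the replicate 3 libraries, 49047 CPM in Pulsed and 46604 CPM in Mettl3-RNP without TMM scaling, lay within the range of the other libraries. Mettl3 was lowest in replicate 3 in both groups. What set replicate 3 apart was not tested.

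The transcripts of the members had few exons, from 2 to 8 in the canonical transcript against a median of 9 over 11940 transcripts of tested genes (GRCm39, GENCODE). ATTTA, the core of AU-rich elements through which proteins such as those of the Zfp36 family speed mRNA decay, was found in the 3′UTR of 8 of 8 members, against 72.7% of all 3′UTRs, and 6 of the 8 lay above the median of 1.34 per kb. Nr4a1 was densest with 3 in a 3′UTR of 547 bases, or 5.48 per kb. Its 3 sites on the plus strand of chromosome 15 are shown with ATTTA in capitals, at chr15:101172571-101172599, chr15:101172595-101172623 and chr15:101172626-101172654 (GRCm39).
Nr4a1 site 1: tgacagattctgATTTAtatttgtgtatt
Nr4a1 site 2: gtattttcctggATTTAtaggatgtgact
Nr4a1 site 3: tctgattaatatATTTAatatattgaata

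The longer element TTATTTATT was in 0 of the 8 3′UTRs and in 9.18% of all. GGACT, 1 form of the sequence in which m6A is written, was in the transcripts of 8 of 8 members and of 94.1% of all genes, and in the 3′UTRs of 4 of 8 and of 66.9% of all. The 3′UTRs of the 3 NR4A genes and Klf2 held none, while those of Klf6 and Klf13 held 5 and 7. These are counts of letters, and m6A was not measured in these libraries.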

How the data were processed

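Poly-A RNA-seq was performed on 4 Mettl3-RNP and 4 Pulsed BMMC libraries. Per the labels and the study's methods, the authors aligned paired-end reads with HISAT2 2.2.1 to GRCm39 and obtained gene counts (Ensembl IDs) with featureCounts 2.0.1. The deposited values are raw counts per gene, 1 table per library. The authors' batch correction was not applied to these counts. Strand and multimapping settings were not given in the sources used here. GENCODE vM39 named 56017 of 56748 IDs, and unnamed IDs held at most 0.113% of a library.

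Genes were kept by filterByExpr (14942) and scaled by TMM. The quasi-likelihood test of edgeR 4.0.16 in R 4.3.3 compared the groups with replicate number as a block, and an F test of the 3 block terms compared replicate numbers. P-values were adjusted by Benjamini-Hochberg over all tested genes and called at 0.05 or less. A prior count of 2 was added for log2 CPM. The fits were tested on simulated data. After group means were subtracted, libraries of 1 number correlated at 0.825, 0.489, 0.879 and 0.765 over 11985 genes averaging 1 CPM or more, against at most 0.183 for other pairs. Over all 14942 tested genes pair 2 had 0.0738, below the highest of other pairs, 0.249.

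Alternatives used no block, other scalings and filters, DESeq2 1.42.0, limma-voom 3.58.1, removeBatchEffect with limma-trend, a robust spread, or left out 1 pair. Named were the 8 members, Mettl3, called genes of the 4 fixed lists that are not cell type markers, the highest and lowest of the other KLF and SP genes, and the 5 genes most like each family. Tpsab1, Cpa3, Adgre1, Cd200r3, Mcpt8, Prss34, Rxrg and Ppp3r1 were named after their values were seen. The members and lists were chosen with earlier results of these data known. Promoters came from RefSeq (GRCm38.p6, 250 bases before to 50 after the start).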

Additional observations from a re-analysis of the deposited data

Results flagged for a closer look

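In each group of 4 libraries, the highest or lowest value of each of the 8 genes was set against the others, on the CPM scale, by Dixon's test at its 95% limit. Of 16 groups examined, 6 held a library that stood apart, each of them a high replicate 3 library. For normally distributed values chance gives about 1 in 20 (0.8 of 16), a rate that does not carry over to CPM values as skewed as these. Nr4a1 stood apart at 1653 CPM in Mettl3-RNP 3 and at 1105 CPM in Pulsed 3. Nr4a3 did so at 19.0 CPM in Mettl3-RNP 3 and at 25.6 CPM in Pulsed 3. Nr4a2 was at 312 CPM in Mettl3-RNP 3, and Klf4 at 1.30 CPM in that library. These depend on the scale: on log2 CPM, a check chosen after the data were seen, 2 of 16 groups held such a library, Klf4 in Mettl3-RNP 3 again and Klf2 in Pulsed 4, which was low, and no NR4A gene did (gap shares of 0.324 to 0.734 above the next library, below the limit). The 2 libraries of replicate 3 carry 1 replicate number, so the flags of a gene in both groups do not count as independent. What set these libraries apart was not tested.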

How the results depend on the processing

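Without the replicate block, 0 members passed between Mettl3-RNP and Pulsed, as with it, 0 of the regulators and partners passed in place of 3, and 0 genes passed in all in place of 559. The fits without it gave -0.31 for Nr4a3 and -0.0074 for Klf13 on the log2 scale, the reverse of the blocked values. Members called rose from 0 to 1 with library size alone, with at least 10 counts in every sample, with DESeq2 and with limma-voom (Klf10 each time), to 1 with no filter (Klf2), and to 2 with removeBatchEffect and limma-trend (Klf2 and Klf10). These settings called 3.98%, 7.67%, 11.7%, 4.3%, 2.95% and 30.5% of the genes that each gave an adjusted p, in that order, against 3.74%. The last does not count the degrees of freedom spent on the replicate numbers. With 1 replicate number left out, members called ranged from 0 to 1, the 1 being Klf10 without replicate 3. The fits without replicates 1, 2, 3 and 4 called 2.18%, 0.174%, 2.57% and 2.23% of all genes, in that order.

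For the lists below, the share of all genes called in each setting is the one given above. Other KLF and SP genes called were 1 with no filter, 2 with DESeq2, 1 with limma-voom and 6 with removeBatchEffect, and 0 to 1 with 1 replicate left out. Regulators and partners called were 5 with DESeq2 (3 higher, 2 lower) and 9 with removeBatchEffect (5 higher, 4 lower), 3 with no filter (2 higher, 1 lower, with Mapk7 lost at an edgeR adjusted p of 0.139, where its 13 alternatives ranged from 0.000357 to 0.999), 4 with at least 10 counts (3 higher, 1 lower), and 0 to 2 with 1 replicate left out. Targets called were 1 with no filter, 2 with DESeq2 and 3 with removeBatchEffect, and 0 to 1 with 1 replicate left out. Immediate early genes called were 7 with no filter (5 higher, 2 lower), well above the 2.95% of all genes called in that fit. They were 1 with at least 10 counts (higher), 4 with DESeq2 (2 higher, 2 lower) and 4 with removeBatchEffect (3 higher, 1 lower). With 1 replicate left out, 0 to 1 of them were called. Directions of single genes turned for Nr4a2 without replicate 3 (-0.59, up to 0.52 with another left out), for Nr4a3 with limma-voom (-0.19), with removeBatchEffect (-0.018) and without replicate 2 (-0.38, up to 0.23 with another left out), for Klf6 without replicate 2 (-0.10, up to 0.082) and for Klf13 without replicate 2 (-0.0095, up to 0.39), none of them called either way. The cause was not tested. In the fits that ran this test, calls between replicate numbers held for each member tested, with 1 exception. Klf10 was lost without replicate 1 (edgeR adjusted p = 0.0556) and without replicate 2 (0.286). Of all genes, 22.8% were called with no filter, 65.4% with at least 10 counts in every sample and 27.2% without replicate 3. Klf4 and Nr4a3 were not tested with at least 10 counts in every sample, nor Klf4 without replicate 3, and DESeq2 gave Klf4 no adjusted p. Depth limits Klf4 and Nr4a3, which held 1 and 4 counts in their lowest libraries.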
